A study of Mus musculus with 12 samples.

Results

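The 9 genes described here, Vsx1, Prkca, Grm6, Trpm1, Cabp5, Isl1, Bhlhe23, Pcp2 and Gng13, are a fixed list of genes used with bipolar cells (BCs) of the mouse retina. They were found by their Ensembl identifiers among the 54146 genes counted, and all 9 passed the filter on low counts that kept 18628 genes for testing. RNA of whole retinas was sequenced as 1 library per mouse from 12 mice, 3 at each of 4 ages. Mice 1 to 3 were P30 controls, and the conditional knock-out (cKO) mice were killed at P32 (mice 4 to 6), P34 (mice 7 to 9) and P38 (mice 10 to 12), which was 2, 4 and 8 d after tamoxifen. The cKO mice carried the Crx-CreERT2 transgene and 2 floxed Otx2 alleles on a 129/SV background and received tamoxifen once, at P30. Crx drives the recombinase in photoreceptors (PRs), so the design leaves Otx2 intact in BCs, which express it too. The labels name the P30 mice only as Crx controls, and the study places them at the time of the injection. Their alleles are not given in the sources used here. Age, time after tamoxifen and deletion therefore changed together between P30 and cKO mice and cannot be told apart. In RNA of a whole tissue, fewer BCs and less RNA per BC cannot be told apart either.

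BCs carry the signal of PRs to ganglion cells. ON BCs (all rod BCs and part of the cone BCs) sense glutamate with the receptor mGluR6, whose G protein cascade closes the channel TRPM1 in the dark, while OFF cone BCs use ionotropic glutamate receptors. In adult mouse retina Otx2 is made in PRs, BCs and the retinal pigment epithelium (RPE), and OTX2 protein recognizes the sequence TAATCC.

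Otx2, the targeted gene, had 293, 328 and 315 CPM (a gene's counts as a share of its library, after TMM scaling) in P30 mice 1, 2 and 3. Mice 4 to 6 had 322, 340.1 and 371 CPM, mice 7 to 9 had 328, 331 and 377 CPM and mice 10 to 12 had 376, 307 and 372 CPM. The deletion removes 1 coding exon and the counts sum all exons, so this level does not measure the deletion. Counts on genes came to 29701483 to 60145034 per library. By Xist and Ddx3y counts, the 3 P30 mice were female, and mice 4, 7, 8, 10 and 11 were male. No P30 control was male, so sex also changed in part with the comparisons against P30. The P32 library of mouse 4 stood apart by gene length: its log2 CPM minus the median of the 12 mice had a median of 0.47 over the 3723 genes with the shortest merged exons and of -0.44 over the 3723 with the longest. In the other 11 mice these medians lay between -0.12 and 0.10. The P32 results of Gng13, Pcp2, Bhlhe23, Trpm1 and Prkca are given with and without mouse 4.

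All 9 genes had a RefSeq start on GRCm38.p6, with 14 start sites in all, and the 250 bases before each start were searched for TAATCC on both strands (GGATTA on the opposite strand). A match was found for 3 of the 9 genes. Over all genes with such a window, 7.21% had a match, and over all windows 6.25%. The 3 windows are printed 5′ to 3′ on the strand of the gene, with the match in capitals, because TAATCC is recognized by OTX2. The design deletes Otx2 in PRs and leaves it intact in BCs. The paper also states that CRX recognizes the same motif as OTX2. They lie at chr7:13397905-13398154 (plus strand, Cabp5), chr7:64153585-64153834 (plus strand, Trpm1) and chr13:116309689-116309938 (minus strand, Isl1).
Cabp5: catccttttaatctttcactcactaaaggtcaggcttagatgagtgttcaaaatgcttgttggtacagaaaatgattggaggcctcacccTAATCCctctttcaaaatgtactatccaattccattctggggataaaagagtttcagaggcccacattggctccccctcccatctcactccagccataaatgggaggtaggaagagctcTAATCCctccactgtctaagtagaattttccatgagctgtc
Trpm1: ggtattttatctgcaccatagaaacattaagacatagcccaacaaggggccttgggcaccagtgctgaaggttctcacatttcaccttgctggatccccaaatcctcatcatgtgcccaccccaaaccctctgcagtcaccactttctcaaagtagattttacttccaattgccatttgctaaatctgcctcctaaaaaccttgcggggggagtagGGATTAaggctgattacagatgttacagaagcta
Isl1: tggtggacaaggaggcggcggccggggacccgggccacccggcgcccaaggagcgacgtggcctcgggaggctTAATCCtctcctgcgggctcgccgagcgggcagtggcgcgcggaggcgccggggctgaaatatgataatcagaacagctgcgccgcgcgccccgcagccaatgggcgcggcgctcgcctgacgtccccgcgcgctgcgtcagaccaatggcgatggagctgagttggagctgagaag
The matches of Cabp5 begin 160 and 41 bases before the start, that of Isl1 177 bases before it and that of Trpm1, on the opposite strand, 34 bases before it. A match of 6 letters is a description of the window and not a binding site.

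None of the 9 genes was called at any age. In each of the 7 comparisons (each cKO age against P30, the cKO ages against each other, and all 9 cKO mice against P30), 0 of 9 passed a Benjamini-Hochberg adjusted p of 0.05 together with a log2 change of 0.5 or more in either direction by edgeR's quasi-likelihood test. Against P30, the same rule called 0% of all genes tested at P32, 0.66% at P34, 0% at P38 and 0.0537% with all cKO mice as 1 group. Between cKO ages it called 0.242% from P32 to P34, 0.199% from P34 to P38 and 0% from P32 to P38. At an unadjusted p of at most 0.05 without a limit on the fold, 3 of 9 genes passed at P32, where 5.64% of all genes did, 0 at P34 (10.5%) and 0 at P38 (5.64%). With all cKO mice as 1 group 0 passed (2.63%), and between cKO ages 1 passed from P32 to P34 (26.9%), 0 from P34 to P38 (5.08%) and 3 from P32 to P38 (23.3%). DESeq2 called 0 of 9 at P32 (0.134% of all genes), P34 (1.98%) and P38 (0.242%) and with all cKO mice as 1 group (0.247%). Between cKO ages it called 0 of 9 from P32 to P34 (7.63%), 0 from P34 to P38 (0.773%) and 2 from P32 to P38 (4.99%). The size of the log2 fold change had a median over the 9 genes of 0.21 at P32, 0.11 at P34 and 0.090 at P38, beside 0.18, 0.17 and 0.15 over all genes tested. Of the 27 changes against P30, 24 had a 95% interval that included 0, 25 had one within 1 log2 unit of 0, and 13 had one within 0.5. The data thus limited most of these changes to less than 2-fold. The intervals reached 0.27 to 0.55 log2 units to each side of the estimate. The smallest change that could be told from the spread between mice therefore differed by gene. The intervals that did not include 0 were those of Trpm1, Bhlhe23 and Gng13 at P32, and none of these changes passed the adjusted test.

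**Figure D1:**
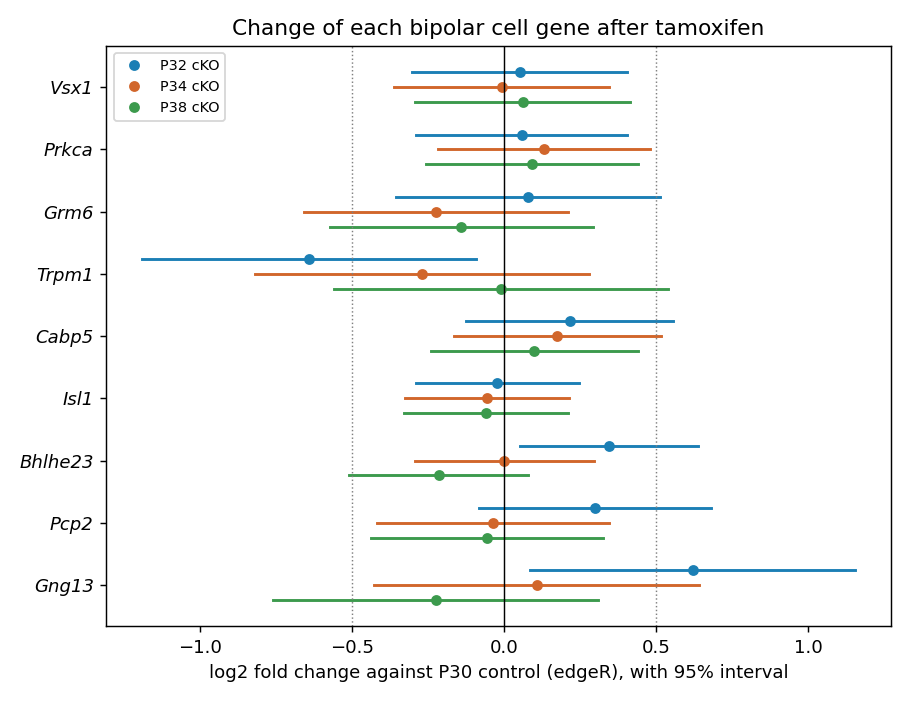
Log2 fold change of each bipolar cell gene at P32, P34 and P38 against the 3 P30 control mice (points, edgeR) with its 95% interval (lines). The dotted lines mark 0.5 in either direction. The intervals that do not include 0 are those of Trpm1, Bhlhe23 and Gng13 at P32, and none of these changes passed the adjusted test.

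Grm6 (ENSMUSG00000000617, chromosome 11 of GRCm38 from 50850685 to 50866208, plus strand) encodes mGluR6, the glutamate receptor of ON BCs. It had 164, 198 and 143 CPM in the P30 mice and 158, 195 and 179 CPM in the P32 mice. The P34 mice had 128, 145 and 158 CPM and the P38 mice 101, 178 and 178 CPM. The values of every cKO age overlapped those of P30, and mouse 10 at P38 was the lowest of the 12. Set against P30, its log2 fold change came to 0.08 at P32, -0.23 at P34 (95% interval -0.66 to 0.21) and -0.14 at P38 (-0.57 to 0.29), with adjusted p of at least 0.734 in edgeR's test. Without mouse 10 the value at P38 was 0.09. Mouse 10 also had the highest summed level of the 8 rod markers, 106046 CPM, against 63367 to 69670 CPM in P30 mice, and over the 12 mice log2 CPM of Grm6 and of that sum had r = -0.82 (n = 12, both from the same libraries), and -0.67 without mouse 10. The part of the rod share in the Grm6 level was not tested.

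Trpm1 (ENSMUSG00000030523, chromosome 7 from 64153835 to 64269775, plus strand) encodes the cation channel at the end of the cascade. It had 224, 370.0 and 365 CPM in the P30 mice and 139, 236 and 240.2 CPM in the P32 mice. Its P34 values were 246, 291 and 259 CPM, and its P38 values 227, 385 and 342 CPM. Mouse 4 was the lowest of the 12, the other P32 mice lay just above P30 mouse 1, and all P34 mice were above all P32 mice. The log2 fold change against P30 was -0.64 at P32 (standard error 0.25, unadjusted p = 0.0263, adjusted p = 0.698 in edgeR's test), -0.27 at P34 and -0.01 at P38. Without mouse 4 the value at P32 was -0.43. The value at P34 was -0.47 without P30 mouse 1, -0.15 without P30 mouse 2, -0.17 without P30 mouse 3 and -0.071 with sex as a covariate. From P32 to P38 the log2 fold change was 0.63 (adjusted p = 0.174 in edgeR's test), and 0.42 without mouse 4. Trpm1 has the longest merged exons of the 9 genes, 14746 bases.

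Trpm1 is also known from melanocytes and the RPE, where its transcript hosts the microRNA miR-211. The summed level of 9 pigment cell and RPE markers was 140.1, 841 and 707 CPM in P30 mice 1, 2 and 3, and 50.6 to 164 CPM in the 9 cKO mice. None of these 9 markers was at 0 in any mouse. P30 mice 2 and 3 were thus high in both measures, while P38 mice 11 and 12, with 385 and 342 CPM of Trpm1, had marker sums of only 132 and 53.8 CPM. Over the 12 mice the log2 levels had r = 0.37 (n = 12). The part of pigmented cells in the P30 level of Trpm1 was not tested.

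**Figure D2:**
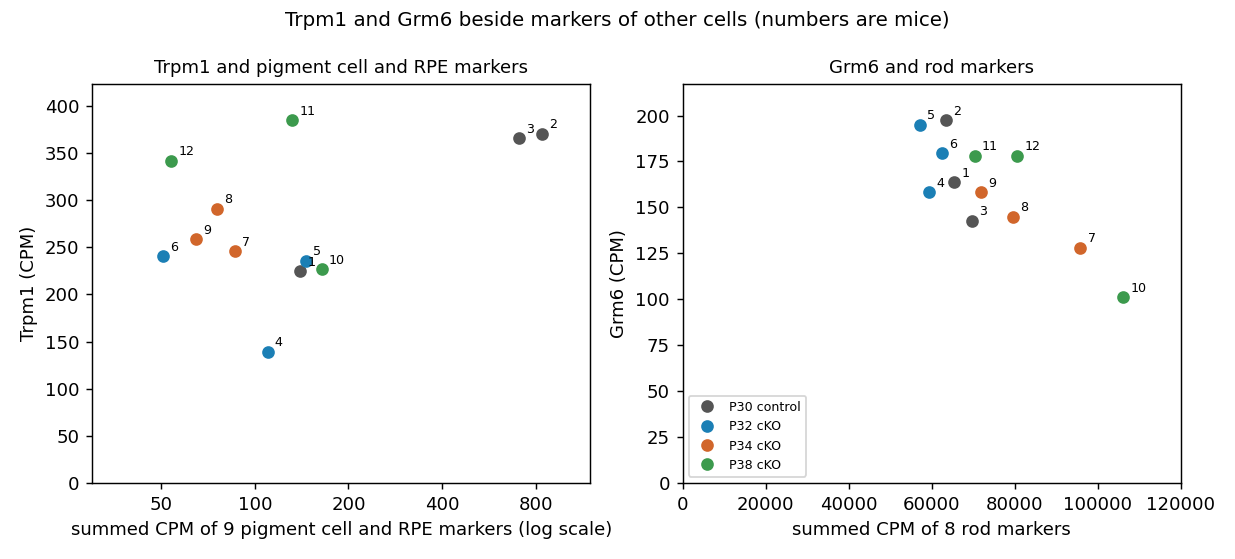
Left, CPM of Trpm1 against the summed CPM of 9 pigment cell and RPE markers on a log scale. Right, CPM of Grm6 against the summed CPM of 8 rod markers. Each point is 1 mouse with its number, colored by age. Trpm1 was between 342 and 385 CPM in 4 mice, and 2 of these had low pigment marker sums. Grm6 was lowest, at 101 CPM, in mouse 10, which had the highest rod marker sum.

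Gng13 (ENSMUSG00000025739, chromosome 17 from 25717171 to 25719406, plus strand) encodes a G protein gamma subunit found in ON BCs. It had 77.3, 68.4 and 70.5 CPM in the P30 mice and 169.7, 85.2 and 77.3 CPM in the P32 mice. The P34 mice had 91.6, 75.1 and 66.0 CPM and the P38 mice 62.6, 55.3 and 67.0 CPM. Mouse 4 was far above all others, and the 3 P38 mice were below the 3 P30 mice without overlap, as were 7.96% of all genes tested. The log2 fold change against P30 was 0.62 at P32 (standard error 0.24, unadjusted p = 0.0271, adjusted p = 0.698 in edgeR's test), 0.11 at P34 and -0.23 at P38 (adjusted p = 0.900). Without mouse 4 the value at P32 was 0.17, and with sex as a covariate the value at P38 was -0.47 (adjusted p = 0.503). From P32 to P38 the difference was -0.84 (standard error 0.24, unadjusted p = 0.00513, adjusted p = 0.118 in edgeR's test), and -0.40 without mouse 4. DESeq2 called this last difference (adjusted p = 0.0200), and so did edgeR's test without mouse 6 (adjusted p = 0.0253), settings under which 4.99% and 10.2% of all genes were called. Gng13 has the shortest merged exons of the 9 genes, 773 bases, and overlaps the opposite-strand gene Chtf18, which had 3.42 CPM.

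Pcp2 (ENSMUSG00000004630, chromosome 8 from 3623371 to 3625545, minus strand) encodes a modulator of G proteins in ON BCs and Purkinje cells. It had 145, 150.3 and 147 CPM in the P30 mice and 230.0, 174 and 139 CPM in the P32 mice. Its P34 values were 169.6, 136 and 125 CPM, and its P38 values 126, 133 and 165 CPM. The P30 mice had a coefficient of variation of 1.86% (n = 3), and mouse 4 was again the highest of the 12. The log2 fold change against P30 was 0.30 at P32 (95% interval -0.083 to 0.68, adjusted p = 0.698 in edgeR's test), and 0.09 without mouse 4. At P34 and P38 it was -0.04 and -0.06. Over the 12 mice, Pcp2 and Gng13 had r = 0.88 and Trpm1 and Gng13 r = -0.81 (log2 CPM, n = 12). Without mouse 4, the extreme value of all 3 genes, r was 0.65 and -0.55 (n = 11). Pcp2 overlaps the opposite-strand gene Pet100, which had 12.2 CPM.

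Prkca (ENSMUSG00000050965, chromosome 11 from 107933387 to 108343928, minus strand) encodes protein kinase C alpha, the standard marker of rod BCs. It had 297, 336 and 379.9 CPM in the P30 mice and 279, 361 and 414 CPM in the P32 mice. The P34 mice had 343, 375 and 392 CPM and the P38 mice 309, 352 and 418 CPM. All ages overlapped, and mouse 4 was the lowest. The log2 fold change against P30 was 0.06 at P32 (0.20 without mouse 4), 0.13 at P34 (95% interval -0.22 to 0.48) and 0.09 at P38, and none passed.

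Cabp5 (ENSMUSG00000005649, chromosome 7 from 13398132 to 13408887, plus strand) encodes a calcium-binding protein of rod BCs and some cone BCs. It had 187, 141 and 123 CPM in the P30 mice and 179, 149.96 and 194 CPM in the P32 mice. Its P34 values were 185, 159 and 164 CPM, and its P38 values 180.0, 143 and 159.8 CPM. The mean was higher at each cKO age than at P30, with log2 fold changes of 0.21, 0.17 and 0.10 at P32, P34 and P38, but the cKO values lay within or near the range of the P30 mice. With all 9 cKO mice as 1 group the log2 fold change was 0.16 (95% interval -0.10 to 0.43, unadjusted p = 0.213 in edgeR's test). These values rest on the P30 mice: without P30 mouse 3 those at P32, P34 and with all cKO mice were 0.087, 0.037 and 0.032, and without P30 mouse 1 they were 0.40, 0.36 and 0.35. P30 mouse 1 and P30 mice 2 and 3, which had the high pigment marker sums, lay at opposite ends of the P30 range, and over the 12 mice r with that sum was -0.68 (n = 12, log2 values). The part of pigmented cells in this level was not tested.

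**Figure D3:**
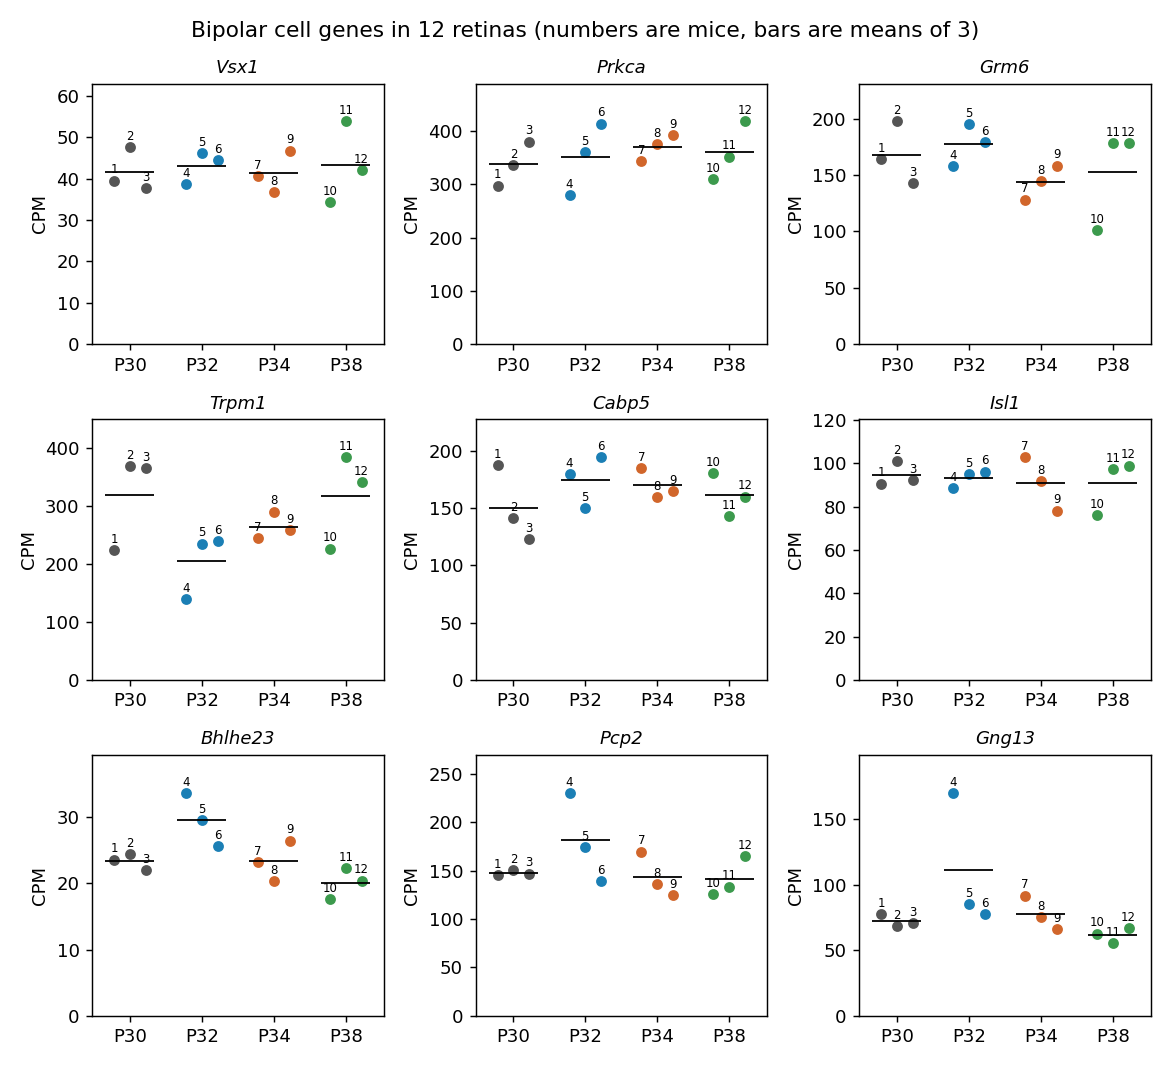
CPM of the 9 bipolar cell genes in each of 12 retinas by age (P30 control; P32, P34 and P38 cKO). Points are mice, with their numbers, and the bars are means of 3 mice; every axis starts at 0. Mouse 4 is the highest for Bhlhe23, Pcp2 and Gng13 and the lowest for Prkca and Trpm1, and mouse 10 is the lowest for Vsx1, Grm6, Isl1 and Bhlhe23.

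Of the transcription factors, Vsx1 (ENSMUSG00000033080, chromosome 2 from 150680702 to 150689360, minus strand) is a homeobox gene of cone BCs, mainly OFF types. It had 39.6, 47.7 and 37.8 CPM in the P30 mice and 38.7, 46.2 and 44.5 CPM in the P32 mice. The P34 mice had 40.7, 36.8 and 46.8 CPM and the P38 mice 34.3, 53.9 and 42.2 CPM. The highest and the lowest of the 12 values were both at P38, and the log2 fold change against P30 was 0.05, -0.01 and 0.06 at P32, P34 and P38, with 95% intervals between -0.36 and 0.41.

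Isl1 (ENSMUSG00000042258, chromosome 13 from 116298281 to 116309689, minus strand) is a LIM homeobox gene of ON BCs, also expressed in amacrine and ganglion cells. It had 90.7, 101 and 92.3 CPM in the P30 mice and 88.5, 94.9 and 96.2 CPM in the P32 mice. Its P34 values were 103, 92.0 and 78.2 CPM, and its P38 values 76.1, 97.4 and 99.0 CPM. Isl1 varied least of the 9 genes, with a coefficient of variation of 8.99% over the 12 mice. Its log2 fold changes against P30 were -0.02, -0.06 and -0.06, and its 95% intervals, the narrowest of the 9 genes, reached no further than -0.33 and 0.25.

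Bhlhe23 (ENSMUSG00000045493, chromosome 2 from 180774381 to 180776900, minus strand) is a basic helix-loop-helix gene needed for rod BCs. It had 23.6, 24.4 and 22.0 CPM in the P30 mice and 33.7, 29.6 and 25.7 CPM in the P32 mice. The P34 mice had 23.3, 20.3 and 26.5 CPM and the P38 mice 17.6, 22.3 and 20.4 CPM. All 3 P32 mice were above all 3 P30 mice, as were 5.26% of all genes tested, and above all 3 P38 mice. Its change against P30 was 0.34 on the log2 scale at P32 (standard error 0.13, unadjusted p = 0.0255, adjusted p = 0.698 in edgeR's test), below 0.0001 in size at P34 and -0.22 at P38 (adjusted p = 0.847). Without mouse 4 the value at P32 was 0.24. From P32 to P38 the difference was -0.56 (standard error 0.14, unadjusted p = 0.00143, adjusted p = 0.114 in edgeR's test), and -0.46 without mouse 4. DESeq2 called it (adjusted p = 0.0102), as did edgeR's test without mouse 6 (adjusted p = 0.0237), again with 4.99% and 10.2% of all genes called. Bhlhe23 followed the rod marker sum inversely over the 12 mice (r = -0.78, n = 12, log2 values; -0.67 without mouse 10), and the sum was 57231 to 62541 CPM at P32 and 70364 to 106046 CPM at P38. The part of the rod share in this difference was not tested.

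The difference between P32 and P38 stood against a large background. At an unadjusted p of at most 0.05 and the same limit on the fold, 3 of the 9 genes passed between these ages (Gng13, Bhlhe23 and Trpm1), where 11.9% of all genes tested did. Ranges without overlap were found for 2 of 9, both lower at P38, where 13.2% of all genes were lower without overlap. Trpm1 was the 1 gene of 9 whose P34 values lay all above its P32 values, a pattern of 14.8% of all genes tested.

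The order of the 9 genes by gene length was also the order in which mouse 4 departed from the other mice at both ends. The 3 genes with the shortest merged exons, Gng13, Pcp2 (1828 bases) and Bhlhe23 (2520 bases), were 1.22, 0.66 and 0.52 log2 units above the median of the 12 mice in mouse 4. The 2 longest, Prkca (8992 bases) and Trpm1, were at -0.35 and -0.85 units in that mouse. The next by length, Cabp5, Vsx1, Isl1 and Grm6, were within 0.15 units. Cabp5 (2526 bases) is nearly as short as Bhlhe23, so length alone did not order these 2 genes. In mouse 4 the same deviation over all genes tested had r = -0.30 with log2 exon length (across genes of 1 library, which are not independent), against -0.16 to 0.18 in the other mice. Mouse 4 also had the largest share of reads with no unique position, 32.2%. What sets this library apart was not tested. Mouse 10 showed another pattern: it was the lowest of the 12 for 4 of the genes, its r with exon length was 0.03, and it had 7.53% of reads on no gene, where the 12 libraries ranged from 6.53 to 13.7%.

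**Figure D4:**
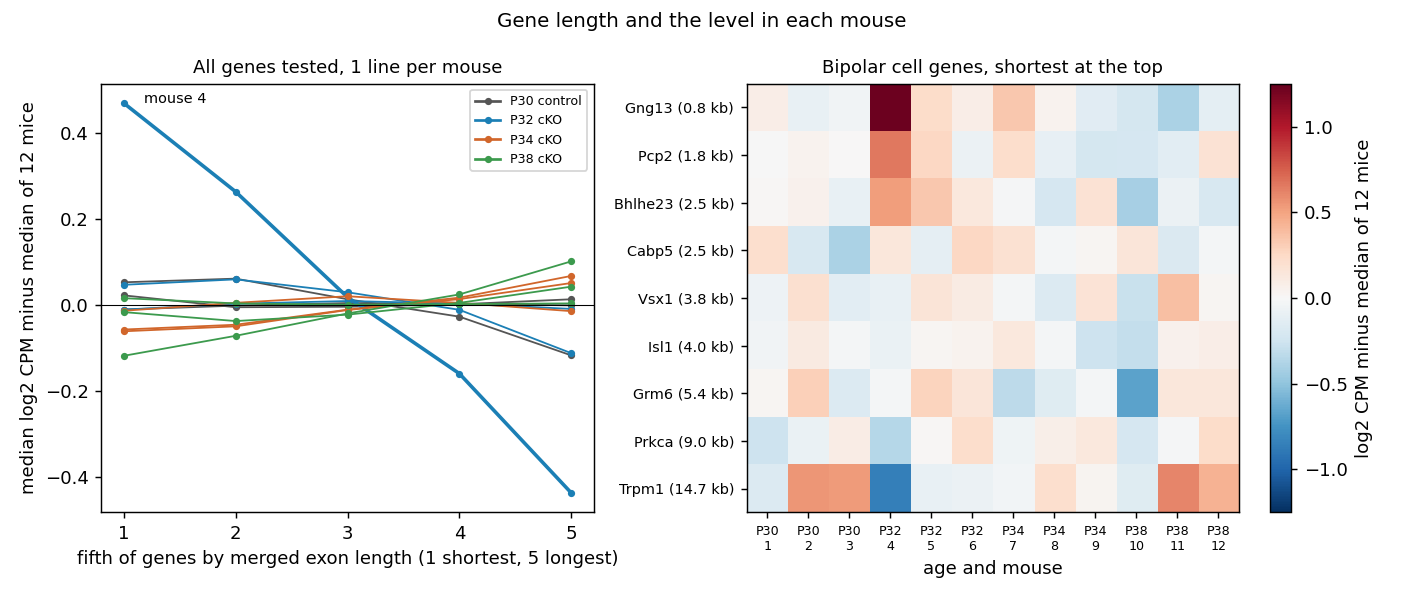
Left, median log2 CPM of each mouse minus the median of the 12 mice, for all genes tested in 5 groups by merged exon length, 1 line per mouse colored by age. Right, the same difference for each bipolar cell gene, ordered by exon length, in each mouse. Mouse 4 falls from 0.47 in the group with the shortest exons to -0.44 in that with the longest, and Gng13 and Trpm1 depart from the other mice in the same directions.

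Compared per kilobase of merged exon, so that genes can be set side by side, the P30 levels were 93.2 ± 6.05 CPM per kb for Gng13, 80.6 ± 1.501 for Pcp2, 59.5 ± 13.2 for Cabp5, 37.6 ± 4.59 for Prkca, 31.0 ± 5.10 for Grm6, 23.9 ± 1.41 for Isl1, 21.7 ± 5.61 for Trpm1, 10.99 ± 1.39 for Vsx1 and 9.26 ± 0.494 for Bhlhe23 (mean ± SD, n = 3). Of neighbours in this order, Prkca and Grm6, and Isl1 and Trpm1, overlapped between P30 mice, and the others did not. The coefficient of variation over the 12 mice was lowest for Isl1, followed by Prkca (12.5%), Vsx1 (13.1%) and Cabp5 (13.4%), and highest for Trpm1 (26.9%) and Gng13 (37.0%), beside a median of 12.6% over all genes with at least 20 CPM. Without mouse 4 it was 14.3% for Gng13, 22.0% for Trpm1, 11.6% for Pcp2 and 9.29% for Isl1, so that Trpm1 was then the highest of the 9.

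Of 48 further genes in 4 lists (9 partners of the mGluR6 cascade, 10 transcription factors, 6 rod BC markers and 23 cone BC markers), all were tested and 0 were called in any comparison by edgeR's quasi-likelihood test. DESeq2 called 0 of 48 at each age against P30 and 2 between cKO ages (Pcdh10 and Syt2, higher at P34 than at P32, where it called 7.63% of all genes). In that comparison edgeR's test called both of these genes and 14.3% of all genes without mouse 6, Pcdh10 and 1.93% of all genes without a filter on low counts, and 0 of the 9 genes under either setting. At an unadjusted p of at most 0.05, 2 of 48 passed at P32 against P30 (5.64% of all genes), 5 at P34 (10.5%) and 2 at P38 (5.64%). Between cKO ages 11 passed from P32 to P34 (26.9%), 1 from P34 to P38 (5.08%) and 7 from P32 to P38 (23.3%), and 1 passed with all cKO mice as 1 group (2.63%). Among the cascade partners, Rgs9bp, an anchor of the RGS complex that PRs use as well, had 878 ± 70.6 CPM at P30 and 799 ± 156, 952 ± 67.3 and 1022 ± 117 CPM at P32, P34 and P38 (mean ± SD, n = 3). Gnb5, the G protein beta subunit of the RGS complexes, had 673 ± 29.9 CPM at P30 and 684 to 695 CPM at the cKO ages. Gnao1, the G alpha subunit coupled to mGluR6, had 408 ± 16.2 CPM at P30 and 487 ± 57.1 CPM at P34 (log2 fold change 0.25, adjusted p = 0.496 in edgeR's test).

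Of the transcription factors, Prdm8, needed for rod BCs and some OFF cone BCs, had 87.8 ± 3.80 CPM at P30 and 81.3 ± 4.67, 86.2 ± 7.85 and 90.3 ± 2.10 CPM at the successive cKO ages. Otx2 had log2 fold changes of 0.14, 0.15 and 0.17 at the 3 ages, each with a standard error of 0.11. Of the rod BC markers, Rpa1 had 193 ± 6.35 CPM at P30 and 204 to 222 CPM in the means of the cKO ages, Gabrr1, a GABA receptor subunit, had 100.5 ± 8.37 and 94.3 to 105 CPM, and Car8 had 84.6 ± 17.1 and 86.7 to 103 CPM. Of the cone BC markers, Grik1, a kainate receptor subunit of OFF cone BCs, had 143 ± 21.6 CPM at P30 and 133 to 149 CPM. Scgn, a calcium-binding protein, had 100.3 ± 16.9 CPM at P30 and 126 ± 21.8 CPM at P32, where mouse 4 had 149.5 CPM and the mean of the other P32 mice was 114 CPM (n = 2). Serpini1 had 107 ± 4.68 CPM at P30 and 135 ± 16.8 CPM at P34 (log2 fold change 0.33, unadjusted p = 0.0166, adjusted p = 0.352 in edgeR's test). None of these genes passed.

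The genes most like the 9 over the mice were found by correlation with the mean of their scaled log2 levels, among 11806 other genes tested with at least 5 CPM. They were Cpne6 (r = 0.95), BC037034 (0.92), Kcnn2 (0.91), Ajm1 (0.91) and Tbkbp1 (0.90, all over 12 mice). Without mouse 10 these r were 0.69 to 0.89. Each had its lowest level in mouse 10, where the mean of the 9 genes was lowest too, at -1.15 SD, while it lay between -0.29 and 0.42 SD in the other mice.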

How the data were processed

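Per the labels and the paper's methods, whole-retina RNA of 12 mice was made into stranded libraries and read as 50 bp single reads. The authors mapped the reads to mm10 with STAR 2.5.3a, counted them per Ensembl gene with HTSeq 0.6.1p1 and deposited raw counts, 1 set per mouse, without normalization. The strand option of the counting is not given in the sources used here, so reads of genes that overlap on opposite strands may not be separated. Reads without a unique position (23.7 to 32.2%) and on no gene (6.53 to 13.7%) were left out of the library totals.

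From the counts, edgeR 4.0.16 in R 4.3.3 gave TMM-scaled CPM, and its filter on low counts left 18628 genes, over which the Benjamini-Hochberg adjustment was made. All 12 mice entered 1 quasi-likelihood fit with a mean per condition, and all cKO mice were compared with P30 in a separate fit. Standard errors and 95% intervals come from the fitted model. Log2 CPM used a prior count of 2. Symbols, positions and merged exon lengths came from GENCODE M21 (GRCm38), and upstream sequences from RefSeq (GRCm38.p6). The procedure was tested on simulated data. Libraries of 1 condition differed beyond counting error (chi-square per degree of freedom 14.2 to 179), and 3 counts correspond to 0.0499 to 0.101 CPM, for counting error only. Each library is 1 mouse, and no batch was labelled.

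The alternatives were DESeq2 1.42.0, its size factors, no filter, fits of only the conditions compared, sex as a covariate and leaving out each mouse. Leaving out mice 4 and 10 together was added after seeing the data. Named are the 9 genes, Otx2, of each other bipolar list any gene called and otherwise the 3 with the highest mean CPM, and the 5 genes most like the mean of the 9. One gene named by this rule is not reported here. Pcdh10, Syt2, Bhlhe22 and Lrit3 were named after their values were seen. The 9 genes and the lists were chosen with earlier results of these data known.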

Additional observations from a re-analysis of the deposited data

Results flagged for a closer look

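Among the 9 cKO mice, mouse 4 (P32) lay far above the others for Pcp2, with 230.0 CPM and the next highest at 174 CPM, and for Gng13, with 169.7 CPM and the next highest at 91.6 CPM. The gap was 0.530 and 0.683 of the range of the 9 mice, above Dixon's critical value of 0.493. Each of the 9 genes was examined in this way, and chance passes that value in about 1 of 20 such groups. Both genes are among the 3 with the shortest exons, and the part of gene length in these values was not tested.

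Bhlhe23 and Gng13 were above the P30 mean in all 3 P32 mice and below it in all 3 P38 mice. The difference between P38 and P32 was -0.56 for Bhlhe23 (adjusted p = 0.114) and -0.84 for Gng13 (adjusted p = 0.118) on the log2 scale by edgeR's quasi-likelihood test, and neither passed.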

How the results depend on the processing

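No paired analysis was possible because mice are numbered 1 to 12 and no number is shared between conditions. The count of the 9 genes called was 0 in every comparison and alternative except between P38 and P32, where DESeq2 called 2 and leaving out 1 mouse gave 0 to 2 (2 without mouse 6). These settings called 4.99% and 10.2% of all genes, where the reported test called 0%. Leaving out a mouse leaves 2 in its group.

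Of 40 log2 fold changes examined, 31 of the 9 genes and 9 of others named in the text, 24 kept their direction in every alternative, and those that turned were at most 0.14 in size. With sex as a covariate, the values that turned were Vsx1 0.085, Bhlhe23 0.0052 and Gng13 -0.18 at P34, and Grm6 0.030 and Trpm1 0.18 at P38. Without mice 4 and 10, they were Isl1 0.0013 at P32, and Grm6 0.078, Trpm1 0.18, Isl1 0.047 and Pcp2 0.013 at P38. Isl1 at P32 was 0.0050 with only the conditions compared. Bhlhe23 at P34 was 0.0039 with DESeq2's size factors, 0.00057 without a filter and 0.0027 in DESeq2. On leaving out each mouse, the values against P30 that turned ranged as follows. At P32 they were -0.018 to 0.16 for Vsx1, -0.078 to 0.20 for Prkca, -0.028 to 0.21 for Grm6 and -0.053 to 0.026 for Isl1. At P34 they were -0.12 to 0.10 for Vsx1, -0.16 to 0.026 for Isl1, -0.11 to 0.092 for Bhlhe23, -0.18 to 0.038 for Pcp2 and -0.038 to 0.19 for Gng13. At P38 they were -0.13 to 0.21 for Vsx1, -0.031 to 0.20 for Prkca, -0.27 to 0.093 for Grm6, -0.21 to 0.19 for Trpm1, -0.031 to 0.29 for Cabp5, -0.13 to 0.062 for Isl1 and -0.18 to 0.028 for Pcp2. The cause of these turns was not tested. Other values kept their direction but moved by over 1.5 times on leaving out a mouse. They ranged from 0.087 to 0.40 at P32, 0.037 to 0.36 at P34 and 0.032 to 0.35 with all cKO mice for Cabp5. They ranged at P34 from -0.47 to -0.15 for Trpm1, -0.34 to -0.093 for Grm6 and 0.048 to 0.21 for Prkca. They were -0.30 to -0.12 for Bhlhe23 at P38 and, at P32, 0.089 to 0.46 for Pcp2, 0.17 to 0.82 for Gng13, -0.84 to -0.43 for Trpm1 and -1.38 to -0.30 for Lrit3. From P32 to P38 they were 0.42 to 0.83 for Trpm1 and -1.05 to -0.40 for Gng13. Otx2 ranged from 0.087 to 0.19, 0.065 to 0.19 and 0.13 to 0.26 at the 3 ages, and Serpini1 from 0.21 to 0.39 at P34. Syt2 and Pcdh10 passed from P32 to P34 without mouse 6 (14.3% of all genes called) and in DESeq2 (7.63%), and Pcdh10 also without a filter (1.93%). The lowest value of the 9 genes was 17.6 CPM, for Bhlhe23, where 3 counts are at most 0.101 CPM, and the effect of depth on the calls was not tested.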

Other observations

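Of the 48 genes in the 4 further lists, which are not all particular to BCs, 4 are described here. They were chosen after their values were seen, and none passed edgeR's quasi-likelihood test. Bhlhe22, a basic helix-loop-helix gene of cone BCs and amacrine cells, had 43.0, 42.3 and 38.5 CPM in the P30 mice, 41.9 to 48.3 CPM in the P32 mice, 40.1 to 48.1 CPM in the P34 mice and 29.1, 34.6 and 34.2 CPM in the P38 mice. Its log2 fold change from P34 to P38 was -0.47 (unadjusted p = 0.000980, adjusted p = 0.240), where 5.08% of all genes passed an unadjusted p of 0.05. Its adjusted p was 0.0187 in DESeq2, with the same fold change, which is under the size of 0.5 that a call needs, and 0.149 to 0.889 in the other alternatives. Syt2, a synaptotagmin that marks some cone BCs, had 30.3 to 35.9 CPM in the P30 mice, 24.4 to 35.0 CPM at P32 and 38.5 to 48.4 CPM at P34, a log2 difference between the last groups of 0.54 (adjusted p = 0.0948). Pcdh10, a protocadherin, had 75.7 to 100.5 CPM in the P30 mice, 60.9 to 95.9 CPM at P32 and 103 to 134 CPM at P34, a log2 difference of 0.63 (adjusted p = 0.0949). The P34 values of Syt2 and Pcdh10 were above those at P32 without overlap, as were 14.8% of all genes tested. Both have long merged exons, 7638 bases for Syt2 and 15888 for Pcdh10. Each was lowest in mouse 4, the P32 library that was low for long genes. On leaving out each mouse, the differences ranged from 0.40 to 0.65 for Syt2 and from 0.49 to 0.82 for Pcdh10. The part of gene length in them was not tested.

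Lrit3, which brings TRPM1 to the dendrites of ON BCs, had 26.5, 40.9 and 49.9 CPM in the P30 mice, 6.27, 23.6 and 39.8 CPM at P32 and 38.8 to 57.4 CPM in the 6 later mice. Its lowest value was in mouse 4, as for Trpm1. Lrit3 is not a long gene, however: its merged exons have 2739 bases, where those of Trpm1 have 14746. Over genes of 1899 to 3140 bases, log2 CPM in mouse 4 minus the median of all mice had a median of 0.26. The low value of Lrit3 in mouse 4 thus ran opposite to the pattern by gene length, and its cause was not tested. The log2 fold change of Lrit3 at P32 was -0.75 (standard error 0.46, adjusted p = 0.698 in edgeR's test), and -0.30 without mouse 4.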
